A study of Tribolium castaneum with 9 samples.

Results

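Nicotinic acetylcholine receptor (nAChR) subunits were the subject here: 10 genes of the red flour beetle Tribolium castaneum, out of 5467 genes in the deposited expression table. All genes whose identifier begins with nAChR were collected, which gave 12, and the 10 with the most reads summed over all libraries were kept. The 10 were nAChRa1 to nAChRa10. The last gene inside this limit was nAChRa2, with 702 reads in all, and the 2 genes just outside it were nAChRa11 with 641 reads and nAChRb1 with 605 reads. The values of those 2 genes are given beside the others, since nAChRb1 is the beta subunit of the set.

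The study sequenced RNA of adult beetles of a susceptible phenotype, after exposure to the fumigant gas carbonyl sulfide (COS) or without it. There were 3 groups of 3 libraries: fat body of COS-treated adults, Malpighian tubules of COS-treated adults, and whole bodies of control adults. Fat body is the insect organ of storage and metabolism, and the Malpighian tubules are its excretory organ. The labels give no dose, exposure time, sex or number of pooled animals, and they do not say whether replicates came from separate beetles. Titles of the fat body samples carry a number that the labels do not explain and that the tubule titles lack, so whether both organs had the same exposure is not known. Spread between libraries, which is all that p-values measure here, may be technical. Each dissected organ differs from the control in tissue as well as in treatment, so the effects of COS and of the tissue cannot be told apart.

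Nicotinic receptors are ion channels of the cys-loop family, each built from subunits around a central pore that opens when acetylcholine binds. In insects acetylcholine is the main fast excitatory transmitter of the central nervous system, and these receptors are the target of neonicotinoid and spinosyn insecticides. Alpha subunits carry a pair of neighbouring cysteines in the acetylcholine-binding loop and beta subunits lack it. Receptor subunits are known mostly as transcripts of neurons, so RNA from fat body or tubules can also hold RNA of nerves and attached tissue.

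Recovered library totals lay between 13435869 and 19866421 reads, of which 45.7% to 67.3% fell on the listed genes. Control replicate 3 and fat body replicate 1 stood apart from the other libraries of their groups in their counts over all listed genes. The organ labels were checked against marker lists. The summed level of 8 fat body markers was 15452 to 24674 CPM (counts scaled to library depth) in fat body, 1002 to 1222 CPM in tubules and 3956 to 5601 CPM in controls. The summed level of 11 tubule markers was 1773 to 1959 CPM in fat body, 5645 to 7554 CPM in tubules and 1743 to 1973 CPM in controls. All 11 were subunits of the V-type proton ATPase, and no other tubule gene was on that list. The summed level of 34 muscle markers was 49365 to 60460 CPM in fat body, 2801 to 3597 CPM in tubules and 21106 to 21894 CPM in controls. Of the fat body markers 7 were lower and 0 higher in tubules than in controls, 5 were higher and 3 lower in fat body than in controls, and 5 were higher and 0 lower in fat body than in tubules. Of the tubule markers 8 were higher and 1 lower in tubules than in controls, 1 was higher and 2 lower in fat body than in controls, and 1 was higher and 9 lower in fat body than in tubules. Over all genes tested, 62.8%, 69.1% and 79.8% were higher or lower in the same order of comparisons, at an adjusted p under 0.05 in edgeR's test. No marker on these lists was at 0 counts in all libraries of a group.

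Per kilobase of coding length, nAChRa10 and nAChRa6 had the highest mean subunit levels in all 3 groups. In tubules, however, nAChRa5 exceeded nAChRa6 in replicate 2 and nAChRa9 exceeded it in replicate 3. The place of nAChRa6 depended on the length used, and it was not second by the deposited FPKM, as given below. Levels between genes are compared as CPM per kilobase of coding length, mean ± SD with n = 3 libraries. In fat body nAChRa10 stood at 41.7 ± 4.46 and nAChRa6 at 26.8 ± 8.95 CPM per kilobase. Then came nAChRa3 at 6.58 ± 1.32, nAChRa7 at 5.42 ± 2.76, nAChRa1 at 4.78 ± 2.07 and nAChRa4 at 4.03 ± 1.68 CPM per kilobase, followed by nAChRa2 at 3.65 ± 1.06 and nAChRa8 at 3.45 ± 1.89. The levels of nAChRa9, 0.962 ± 0.511, and nAChRa5, 0.928 ± 0.0929 CPM per kilobase, were the lowest in fat body. From nAChRa3 down to nAChRa8, neighbours in this order differed by less than the larger of their SDs, as did nAChRa9 and nAChRa5.

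In tubules the levels were 9.70 ± 1.07 CPM per kilobase for nAChRa10, 8.72 ± 2.11 for nAChRa6, 6.94 ± 0.610 for nAChRa5 and 5.75 ± 4.09 for nAChRa9. Below them lay nAChRa3 at 3.72 ± 1.20, nAChRa8 at 3.29 ± 0.998 and nAChRa4 at 1.83 ± 0.489 CPM per kilobase. The 3 lowest were nAChRa1 at 1.02 ± 0.615, nAChRa7 at 0.562 ± 0.0480 and nAChRa2 at 0.527 ± 0.383 CPM per kilobase, and in tubules neighbours differed by less than the larger of their SDs all the way from nAChRa10 down to nAChRa8, and again among these 3. In control whole bodies nAChRa10 had 25.3 ± 3.998 and nAChRa6 20.3 ± 2.996 CPM per kilobase, again ahead of nAChRa3 at 9.38 ± 2.19, nAChRa9 at 7.57 ± 1.05, nAChRa8 at 6.38 ± 1.87 and nAChRa1 at 6.14 ± 0.639. The remaining controls' levels were 4.64 ± 0.661 for nAChRa2, 4.62 ± 0.457 for nAChRa7, 4.07 ± 0.152 for nAChRa4 and 3.90 ± 0.294 CPM per kilobase for nAChRa5. By the same measure neighbours from nAChRa3 to nAChRa1 could not be put in order in controls, nor could nAChRa2 and nAChRa7, or nAChRa4 and nAChRa5.

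The values per library that follow are CPM scaled with TMM factors over each library's total, in the order of replicates 1, 2 and 3. Fold changes of the subunits are descriptions with their standard errors. Whether a subunit passed edgeR's test over all genes is given beside the share of all genes that did, and it is no independent evidence, because the deposited table holds genes selected for a fold change in these same comparisons. A log2 fold change is given as fat body over control, tubules over control or fat body over tubules.

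The subunits nAChRa5, nAChRa6 and nAChRa7 belong to the group of insect subunits that resembles the vertebrate alpha7 receptor. The first gene, nAChRa6, is the target of the spinosyn insecticides. Its level was 28.5, 55.8 and 39.5 CPM in fat body, 15.9, 9.74 and 14.6 CPM in tubules and 36.03, 31.1 and 26.8 CPM in controls. Every tubule library lay below every other library, while fat body and controls overlapped. The log2 fold change of nAChRa6 was 0.40 ± 0.28 for fat body over control, -1.22 ± 0.29 for tubules over control and 1.62 ± 0.29 in fat body over tubules. The gene nAChRa7, whose Drosophila counterpart acts in the giant fibre escape circuit, had 4.73, 13.3 and 7.70 CPM in fat body, 0.930, 0.938 and 0.803 CPM in tubules and 6.55, 7.97 and 7.46 CPM in controls. Its 3 tubule libraries were close together and lay below all others, and the fat body libraries spanned the controls. For nAChRa7 the log2 fold change was 0.23 ± 0.35 for fat body over control, -3.03 ± 0.40 for tubules over control and 3.26 ± 0.40 in fat body over tubules. The sign of the first of these turned to -0.24 without fat body replicate 2 and to -0.01 when libraries were scaled by their totals alone.

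The third gene of that group, nAChRa5, had the opposite pattern, with 1.60, 1.93 and 1.89 CPM in fat body, 12.1, 14.3 and 14.1 CPM in tubules and 7.71, 6.96 and 8.08 CPM in controls. All tubule libraries were above all controls, and all fat body libraries were below both. Its log2 fold change was -2.06 ± 0.20 for fat body over control, 0.83 ± 0.19 for tubules over control and -2.90 ± 0.21 in fat body over tubules. The tubule difference against controls shrank to 0.34 with the authors' size factors and no longer passed edgeR's test. The raw counts of nAChRa5 were 24, 34 and 28 reads in fat body, 235, 198 and 211 reads in tubules and 119, 110 and 129 reads in controls, so the fat body values rest on few reads. Within groups nAChRa5 varied little, with a coefficient of variation of 10.01% in fat body, 8.78% in tubules and 7.54% in controls.

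The subunits nAChRa1 and nAChRa2, whose Drosophila counterparts are found in the same receptor complexes, had closely matching values. The gene nAChRa1 stood at 5.53, 11.7 and 6.21 CPM in fat body, 1.81, 2.60 and 0.602 CPM in tubules and 10.8, 10.5 and 8.84 CPM in controls. The gene nAChRa2 stood at 4.80, 8.12 and 5.40 CPM in fat body, 0.724, 1.59 and 0.334 CPM in tubules and 8.62, 8.16 and 6.52 CPM in controls. For both, each tubule library lay below every other library, tubule replicate 3 was the lowest, and fat body overlapped the controls. The log2 fold change of nAChRa1 was -0.36 ± 0.45 for fat body over control, -2.58 ± 0.49 for tubules over control and 2.23 ± 0.49 in fat body over tubules. Those of nAChRa2 were -0.34 ± 0.42, -3.15 ± 0.48 and 2.80 ± 0.48 for the same 3 comparisons. Tubule counts were low, at 35, 36 and 9 reads for nAChRa1 and 14, 22 and 5 reads for nAChRa2, and without tubule replicate 2 the log2 fold change of nAChRa2 was -3.83 for tubules over control and 3.48 in fat body over tubules.

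The subunit nAChRa3 had 10.9, 13.1 and 8.71 CPM in fat body, 6.51, 7.94 and 4.01 CPM in tubules and 13.2, 13.6 and 19.7 CPM in controls. Its tubule libraries were the lowest, its controls the highest, and the 3 groups did not overlap. For this gene the log2 fold change was -0.51 ± 0.30 for fat body over control, -1.33 ± 0.30 for tubules over control and 0.82 ± 0.30 in fat body over tubules. The value for fat body over control was -0.76 and passed edgeR's test with library totals alone. The value in fat body over tubules no longer passed edgeR's test without fat body replicate 1 or 2 (0.83 and 0.67) or without tubule replicate 1 or 3 (0.86 and 0.59). The subunit nAChRa4, whose Drosophila counterpart acts in the control of sleep, had 4.73, 9.997 and 5.60 CPM in fat body, 3.10, 2.24 and 3.88 CPM in tubules and 6.87, 7.09 and 6.58 CPM in controls. Its tubule libraries lay below all others, and its controls were the most even of any subunit, with a coefficient of variation of 3.72%. For nAChRa4 the log2 fold change was -0.01 ± 0.32 for fat body over control, -1.15 ± 0.33 for tubules over control and 1.14 ± 0.33 in fat body over tubules. The value against controls in fat body was close to 0, and its sign turned with the scaling, to 0.21 with RLE factors and 0.16 with the authors' size factors.

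The subunit nAChRa8 had 3.93, 8.69 and 3.38 CPM in fat body, 5.79, 3.32 and 6.15 CPM in tubules and 11.7, 11.4 and 6.52 CPM in controls. Its tubule libraries were all below the controls, whose lowest value was that of replicate 3, and fat body replicate 2 was the only fat body library within the range of the controls. The log2 fold change of nAChRa8 was -0.88 ± 0.42 for fat body over control, -0.95 ± 0.42 for tubules over control and 0.07 ± 0.43 in fat body over tubules. For tubules over control it was -1.46 with the authors' size factors and -1.18 with library totals alone, and it passed edgeR's test in both. It also passed with upper-quartile factors (-1.19), with tubules and controls fitted alone (-0.96), without fat body replicate 2 (-0.95) and without the 2 libraries that stood apart (-1.18). The value for fat body over control passed too at -1.43 without fat body replicate 2 and at -1.13 with library totals alone. Without fat body replicate 2 the sign in fat body over tubules turned, to -0.47.

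The remaining members, nAChRa9 and nAChRa10, code for the shortest proteins of the set, of 411 and 438 residues against 510 to 649 residues for the other subunits in the table. Both carry the ligand-binding domain entry of InterPro in the deposited annotation but lack the entry of the nicotinic receptor family, and nAChRa9 also lacks the entry for the transmembrane domain. The gene nAChRa10 had 51.3, 61.5 and 51.4 CPM in fat body, 11.6, 12.3 and 14.3 CPM in tubules and 39.3, 29.6 and 30.95 CPM in controls. Its fat body libraries were the highest, its tubule libraries the lowest, and the 3 groups did not overlap. Log2 fold changes of nAChRa10 were 0.72 ± 0.18 for fat body over control, -1.38 ± 0.18 for tubules over control and 2.10 ± 0.18 in fat body over tubules. The higher level in fat body than in controls was 0.46 when libraries were scaled by their totals alone, where it no longer passed edgeR's test.

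The gene nAChRa9 had 1.67, 1.42 and 0.473 CPM in fat body, 5.32, 3.17 and 12.8 CPM in tubules and 10.4, 7.91 and 9.65 CPM in controls. Its fat body libraries lay below all others, and the tubule libraries ranged from below the controls to above them. The log2 fold change of nAChRa9 was -2.96 ± 0.59 for fat body over control, -0.40 ± 0.52 for tubules over control and -2.57 ± 0.58 in fat body over tubules. Tubule replicate 3 set much of the tubule level: without it the log2 fold change was -1.13 for tubules over control and -1.84 in fat body over tubules. The fat body values rest on 25, 25 and 7 reads.

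Of the 2 genes just outside the limit, nAChRa11 had 2.20, 3.86 and 1.89 CPM in fat body, 4.60, 3.32 and 6.02 CPM in tubules and 7.45, 5.76 and 5.08 CPM in controls. Its fat body libraries were below all controls, and its tubule libraries overlapped both other groups. Its log2 fold change was -1.19 ± 0.35 for fat body over control, -0.39 ± 0.34 for tubules over control and -0.80 ± 0.35 in fat body over tubules. The beta subunit nAChRb1 had 3.27, 6.02 and 6.35 CPM in fat body, 2.38, 2.89 and 1.87 CPM in tubules and 5.18, 5.70 and 4.51 CPM in controls. Its tubule libraries lay below all others, and fat body spanned the controls. Its log2 fold change was 0.02 ± 0.30 for fat body over control, -1.11 ± 0.31 for tubules over control and 1.13 ± 0.31 in fat body over tubules.

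**Figure D1:**
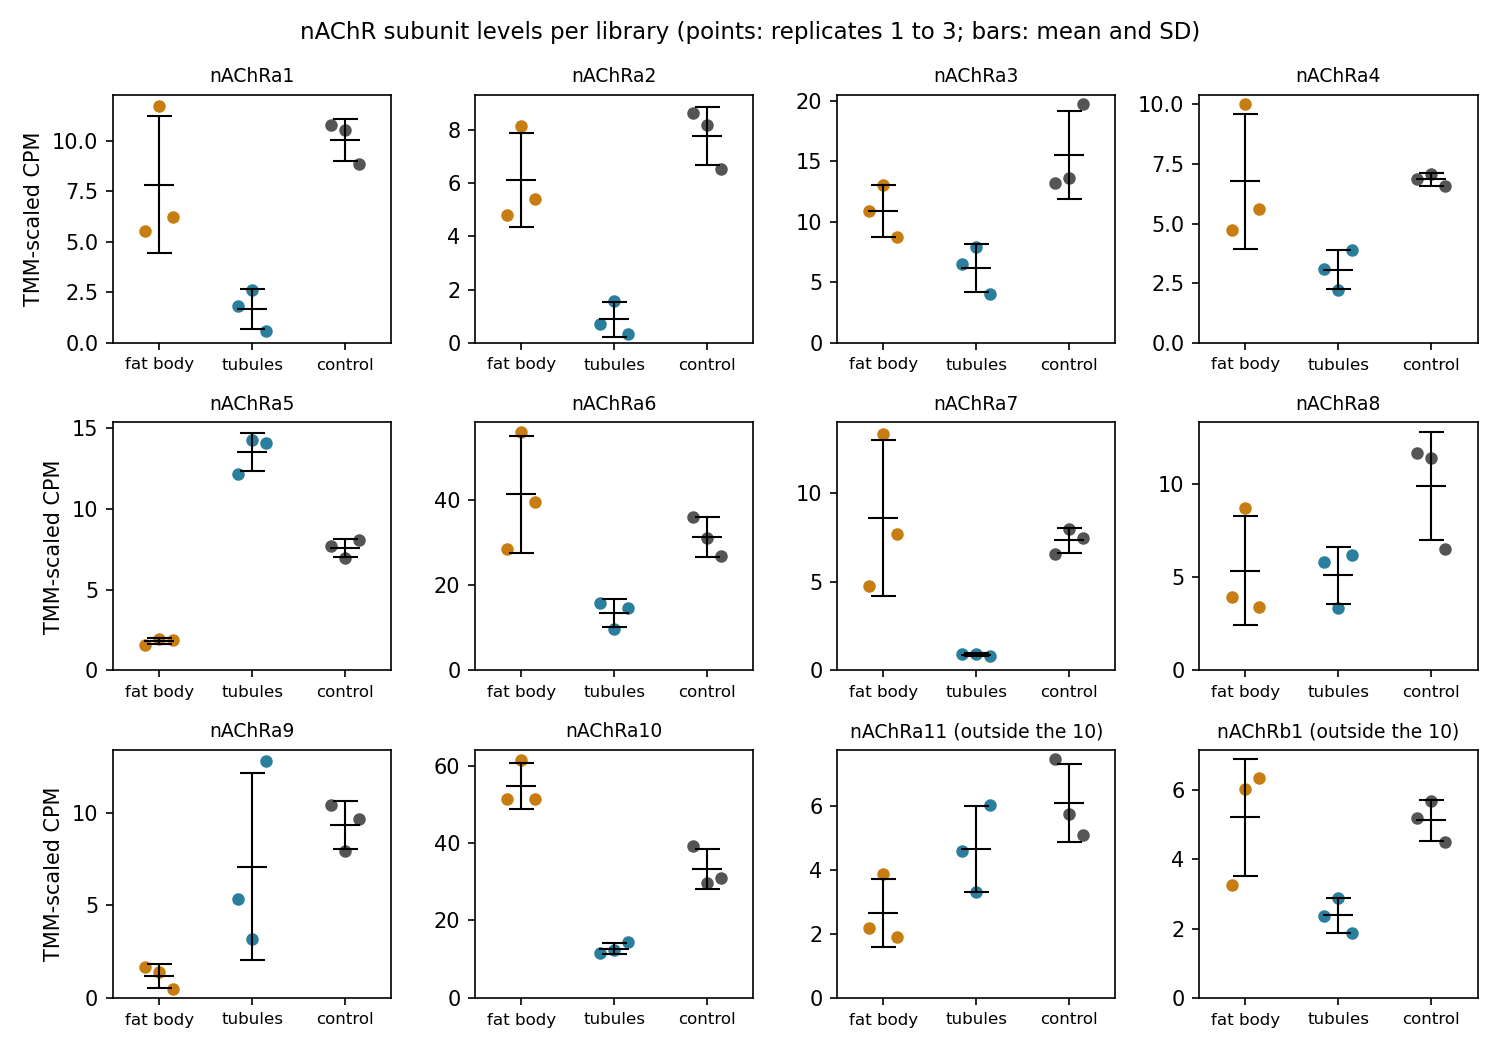
Level of each of the 12 subunits in each library, as TMM-scaled CPM on a linear axis that starts at 0, for fat body, tubules and control. Points are replicates 1 to 3 and the bars are the mean and SD. Tubule libraries of nAChRa7 lie between 0.803 and 0.938 CPM, below all others, whereas those of nAChRa5 lie between 12.1 and 14.3 CPM, above all others.

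Set against control whole bodies, tubules of COS-treated beetles held less RNA of most subunits. Of the 10, 7 were lower in tubules at an adjusted p under 0.05 in edgeR's quasi-likelihood test over all genes, 1 was higher (nAChRa5) and 2 did not pass (nAChRa8 and nAChRa9). In 8 of the 10 all tubule libraries lay below all controls, in 1 all lay above, and nAChRa9 overlapped. Among all 5358 genes tested, 62.8% passed in either direction, 30.2% lower and 32.6% higher, and in 72.4% the 2 groups did not overlap, with tubules below in 38.1% and above in 34.3%. The lowest log2 fold changes were those of nAChRa2, nAChRa7 and nAChRa1. The median of the 10 was -1.28, against -0.12 over all genes tested, and 8 of the 10 had in the authors' deposited table a log2 fold change of -1 or less and 0 of 1 or more. In these bulk samples, fewer cells of a type and less RNA per cell cannot be told apart.

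Fat body of COS-treated beetles overlapped with control whole bodies in most subunits. The gene nAChRa10 was higher in fat body by the same test, nAChRa5 and nAChRa9 were lower, and 7 did not pass, which does not show that they were equal. Fat body libraries lay all above the controls for nAChRa10 and all below them for nAChRa3, nAChRa5 and nAChRa9, and 6 subunits overlapped. Among all genes tested 69.1% passed, 32.2% higher and 36.9% lower, and in 78.0% the groups did not overlap, with fat body below in 41.5% and above in 36.5%. The median log2 fold change of the 10 was -0.35, against -0.22 over all genes. Past 1 in size in the authors' deposited table were 2 of the 10, with -1.90 for nAChRa5 and -2.81 for nAChRa9.

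Between the organs of COS-treated beetles, 7 of the 10 subunits were higher in fat body than in tubules, nAChRa5 and nAChRa9 were lower, and nAChRa8 did not pass. The groups did not overlap for the same 9 genes. Over all genes tested 79.8% passed, 38.8% higher and 41% lower, and in 80.3% the groups did not overlap, with fat body above in 39.7% and below in 40.6%. The median log2 fold change of the 10 was 1.38, against -0.24 over all genes, and it was 2.05 with the authors' size factors and 0.85 as log2 of the deposited TPM + 1. The highest values were those of nAChRa7, nAChRa2 and nAChRa1, and the lowest that of nAChRa5. In the authors' deposited table the log2 fold change in fat body over tubules was 3.94 for nAChRa7, 3.47 for nAChRa2 and -2.24 for nAChRa5.

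**Figure D2:**
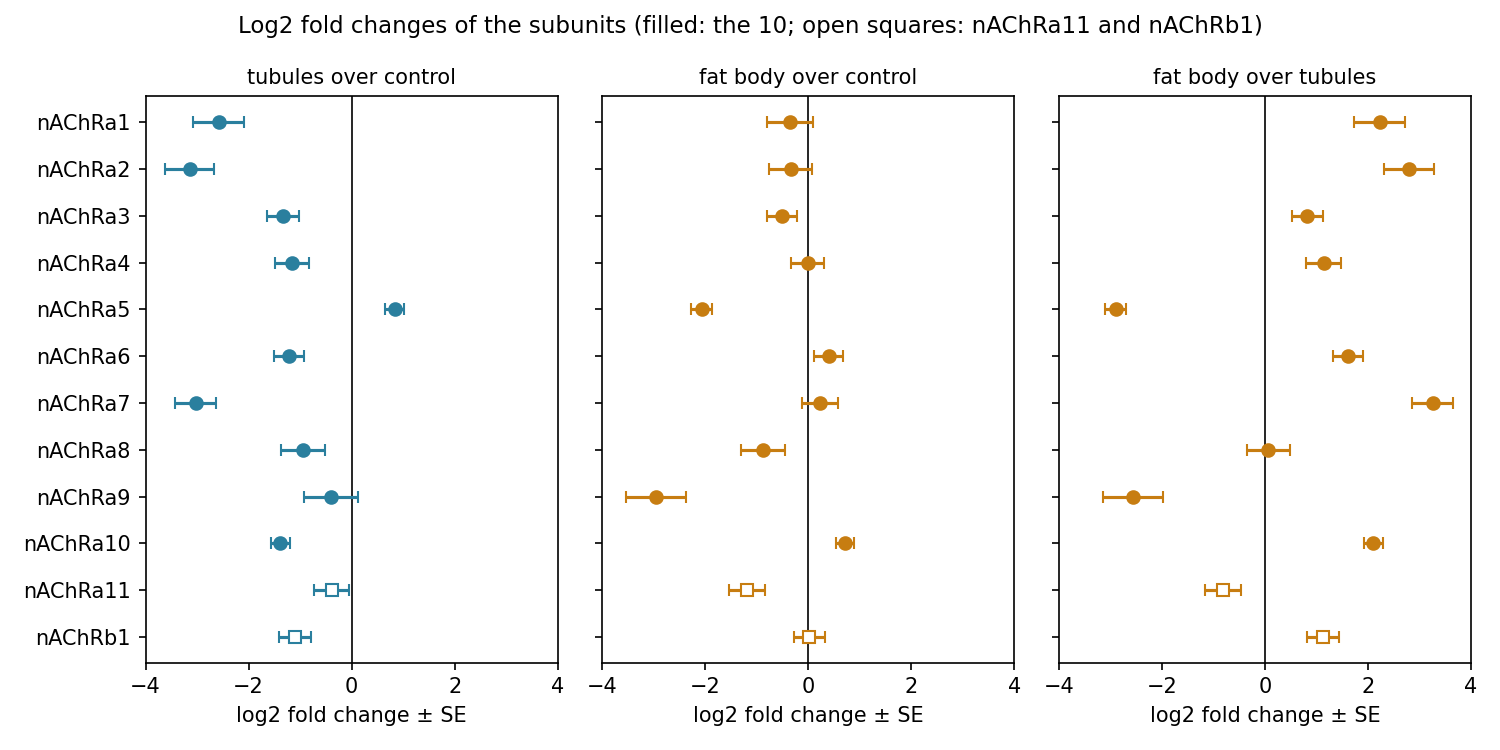
Log2 fold change ± SE of each subunit (rows) in the 3 comparisons (panels). Filled circles are the 10 subunits, open squares nAChRa11 and nAChRb1, and the vertical line marks no difference. For tubules over control every subunit but nAChRa5 lies left of the line, and nAChRa5 and nAChRa9 lie far to the left in both panels that have fat body on top.

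Fat body replicate 2 had the highest value of its group for 9 of the 10 subunits, and nAChRa9, the exception, was highest in replicate 1. Over all genes tested, 26.5% were highest in that library, and among 25 neuronal markers 11 were. Fat body replicate 3 was likewise highest for 11 of the 25 neuronal markers, but for 0 of the 10 subunits. Fat body replicate 1 had the lowest value for 7 of the 10 subunits and for 18 of the 25 neuronal markers. Summed over the 10 subunits, the level was 118, 186 and 130 CPM in fat body, 63.8, 58.1 and 71.6 CPM in tubules and 151, 134 and 131 CPM in controls. The fat body libraries thus spanned the controls, and each tubule library was below all others. Without fat body replicate 2, 4 of the 10 passed in fat body over control with a median log2 fold change of -0.63, and 8 passed in fat body over tubules with a median of 1.05. The part of that library's neuronal RNA in the subunit values was not tested.

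Fat body and controls overlapped in the summed subunit level, but nAChRa10 took a larger share of it in every fat body library than in any control. As shares of the summed CPM per kilobase of the 12 subunits, mean ± SD with n = 3 libraries, nAChRa10 made up 41.1% ± 5.35 in fat body, 20.9% ± 1.85 in tubules and 25.3% ± 1.97 in controls. The share of nAChRa6 was 25.6% ± 3.19 in fat body, 18.6% ± 3.61 in tubules and 20.3% ± 1.45 in controls. The share of nAChRa5 was 0.919% ± 0.146 in fat body, 15.05% ± 2.44 in tubules and 3.93% ± 0.456 in controls, with no overlap between the groups. The subunit nAChRa9 made up 0.961% ± 0.601 in fat body, 11.7% ± 6.96 in tubules and 7.59% ± 0.873 in controls. Its share in tubule replicate 3 was 19.6%.

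Within the alpha7-like group, the share of nAChRa7 ran against that of nAChRa5, at 5.03% ± 1.44 in fat body, 1.23% ± 0.246 in tubules and 4.68% ± 0.792 in controls. Shares of nAChRa4 were nearly even, at 3.80% ± 0.634, 3.87% ± 0.575 and 4.11% ± 0.333 in fat body, tubules and controls. So were those of nAChRb1, at 3.29% ± 0.973, 3.42% ± 1.14 and 3.36% ± 0.425. Shares add up to a whole, so a higher share of 1 gene lowers the others.

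These shares depend on the length each count is divided by. The gene length in the deposited table spans introns, and it is 1.19 times the coding length for nAChRa8 but 17.6 times for nAChRa4 and 18.7 times for nAChRa5. By the deposited FPKM, nAChRa10 therefore made up 61.3% ± 6.32 in fat body, 36.9% ± 4.01 in tubules and 40.3% ± 3.08 in controls. By the same FPKM nAChRa5 made up 0.118% ± 0.0172 in fat body, 2.29% ± 0.433 in tubules and 0.538% ± 0.0826 in controls. The second place also changed hands, and by mean FPKM share nAChRa6 held it in no group. In tubules nAChRa6 had 5.84% ± 1.16, below nAChRa8 with 16.6% ± 3.47. In controls nAChRa6 had 5.74% ± 0.214, below nAChRa8 with 13.6% ± 3.15 among others. In fat body nAChRa6 had 6.80% ± 1.02, below nAChRa7 with 8.14% ± 2.53, a gap smaller than the SD of nAChRa7. The order of the groups for nAChRa10 and nAChRa5 was the same on both scales.

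**Figure D3:**
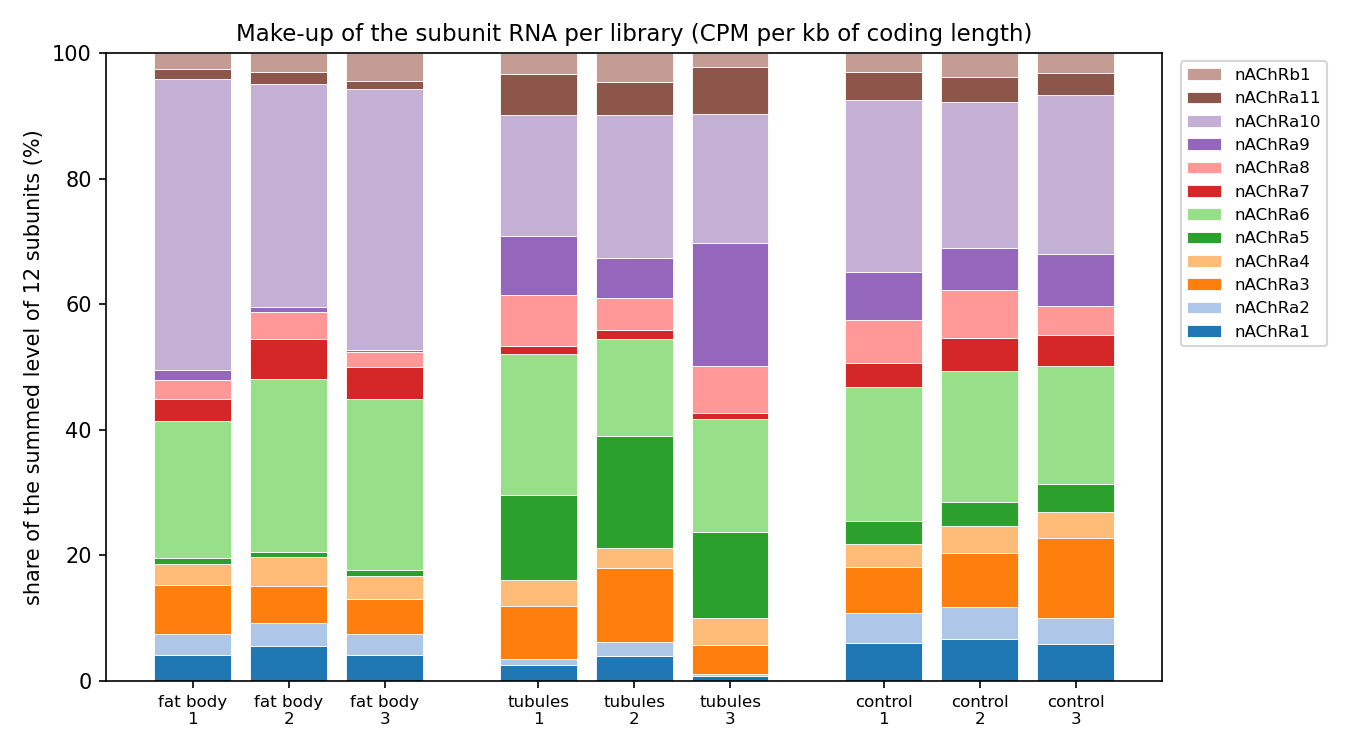
Share of each subunit (%) in the summed CPM per kilobase of coding length of the 12 subunits, for each library of fat body, tubules and control (stacked bars from 0 to 100). The nAChRa10 segment takes 35.6% to 46.2% in fat body, 19.2% to 22.9% in tubules and 23.4% to 27.3% in controls, and the nAChRa5 segment takes 13.6% to 17.9% in tubules but at most 1.03% in fat body.

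The subunits were described beside other genes taken as neuronal, chosen by text in the gene descriptions. The summed level of the 25 neuronal markers was 998 to 1354 CPM in fat body, 345 to 446 CPM in tubules and 1013 to 1150 CPM in controls. In tubules over control 19 of the 25 were lower and 1 was higher, and in fat body over tubules 19 were higher and 2 lower. The 1 marker higher in tubules than in controls was described as ELKS (LOC664402). Its mean was 63.8 CPM in tubules, 23.5 CPM in controls and 6.57 CPM in fat body. In fat body over control 9 were higher, 4 lower and 12 did not pass. The median log2 fold changes of this list were 0.37 for fat body over control, -1.12 for tubules over control and 1.39 in fat body over tubules. Over all genes tested, 69.1%, 62.8% and 79.8% passed in the same order, with medians of -0.22, -0.12 and -0.24. The summed level of the 10 subunits came to 11.8% ± 1.86 of the neuronal sum in fat body, 16.02% ± 1.47 in tubules and 12.7% ± 0.900 in controls (SD, n = 3). In tubules the neuronal sum averaged 405 CPM, and neuroglian, at a mean of 97.6 CPM, and ELKS made up large parts of it. How far the tubule sum stands for RNA of neurons was not tested.

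The subunit nAChRa5 ran against the neuronal sum, since it was highest in tubules, where that sum was lowest. The neuronal markers of highest mean level were neuroglian, fasciclin-2, microtubule-associated protein 1B (MAP1B), futsch and complexin. Of these the synaptic protein complexin (LOC657060) had a log2 fold change of -1.503 ± 0.18 for tubules over control and 1.89 ± 0.18 in fat body over tubules. The adhesion proteins neuroglian (LOC658762) and fasciclin-2 (LOC660103) had 1.34 ± 0.23 and 3.45 ± 0.21 in fat body over tubules, and the cytoskeletal protein futsch (LOC661669) had 2.29 ± 0.23. For tubules over control neuroglian had only -0.59 ± 0.22, against -2.57 ± 0.20 for fasciclin-2 and -2.46 ± 0.23 for futsch. The gene described as MAP1B (LOC660329) averaged 0.416 CPM in fat body, 5.56 CPM in tubules and 272 CPM in controls. Without it the subunits came to 11.8% ± 1.86 of the neuronal sum in fat body, 16.2% ± 1.42 in tubules and 16.8% ± 1.07 in controls. Only then did the shares in fat body and controls not overlap. The shares in tubules were all above those in controls with MAP1B in the sum, but overlapped them without it. Both separations depend on whether MAP1B, whose level was far higher in controls, is in the sum, and nothing is read from them.

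Other cholinergic genes were mostly lower in tubules as well. Of 10 such genes in the table, 9 were lower and 1 higher in tubules than in controls, 8 were higher and 1 lower in fat body than in tubules, and 1 differed between fat body and controls. The median log2 fold changes were -1.76, 2.55 and 0.35 in that order. Over all genes tested, 62.8%, 79.8% and 69.1% passed in the same order, with medians of -0.12, -0.24 and -0.22. Choline O-acetyltransferase (LOC664403), which makes acetylcholine, had -1.995 ± 0.39 for tubules over control and 2.31 ± 0.39 in fat body over tubules. The high-affinity choline transporter (LOC664379), which returns choline to the nerve ending, had -2.95 ± 0.22 and 3.30 ± 0.22 for the same comparisons. Among enzymes that break acetylcholine down, acetylcholinesterase 1 (LOC662258) had -2.65 ± 0.32 and 3.04 ± 0.32, and acetylcholinesterase 2 (LOC659368) had -3.14 ± 0.27 and 3.48 ± 0.28.

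Like nAChRa5, 1 gene of this list ran the other way. It is described in the deposited annotation as an acetylcholinesterase (LOC662506), and it had 1.33, 1.48 and 2.97 CPM in fat body, 41.4, 111 and 88.9 CPM in tubules and 30.01, 32.4 and 24.4 CPM in controls. The other genes with that description, LOC655695 and LOC655615, had log2 fold changes of -1.53 ± 0.55 and -2.37 ± 0.42 for tubules over control. Muscarinic receptors, which act through G proteins, had -1.07 ± 0.26 (LOC661406) and -1.33 ± 0.39 (LOC661581). A further receptor subunit, described as beta-3-like (LOC660371) and without an nAChR identifier, had 10.9, 12.4 and 16.9 CPM in fat body, 2.48, 3.46 and 4.75 CPM in tubules and 11.5, 8.80 and 9.15 CPM in controls. Its tubule libraries lay below all others, and its log2 fold change was -1.47 ± 0.29 for tubules over control.

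Other ligand-gated receptors held members of both directions. The 2 that were higher in tubules than in controls were described as cys-loop subunits, with no ligand named. Of 18 other ligand-gated receptors, 11 were lower and 2 higher in tubules than in controls, 4 were higher and 4 lower in fat body than in controls, and 9 were higher and 5 lower in fat body than in tubules. Their median log2 fold changes were -1.45, -0.37 and 1.10 in that order. Over all genes tested 62.8%, 69.1% and 79.8% passed in the same order, with medians of -0.12, -0.22 and -0.24. The glutamate-gated chloride channel Glucl, with 1.86 ± 0.16 in fat body over tubules, the pH-sensitive chloride channel Phcl with 2.93 ± 0.33 and the kainate receptor LOC663559 with 3.72 ± 0.43 were higher in fat body. The cys-loop subunit Tcas_11340 had -2.29 ± 0.59, and neither Lcch3 with -0.41 ± 0.59 nor the kainate receptor LOC657048 with 0.27 ± 0.44 passed. Of 34 markers of muscle, a tissue that motor nerves reach, 27 were lower and 2 higher in tubules than in controls, 21 were higher and 9 lower in fat body than in controls, and 23 were higher and 5 lower in fat body than in tubules. The most abundant were paramyosin (LOC659309), muscle myosin heavy chain (LOC659358), titin (LOC660533), troponin T (LOC663893) and troponin I (LOC656510), with log2 fold changes of 5.78 ± 0.19, 5.21 ± 0.18, 5.40 ± 0.17, 4.30 ± 0.18 and 4.16 ± 0.23 in fat body over tubules. The part of nerve and muscle RNA in the levels of the subunits was not tested.

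Lists for 2 further tissues were read for the same reason. The glial list held 4 genes: excitatory amino acid transporters and the transcription factor glial cells missing. Of the 4, 3 were higher and 0 lower in tubules than in controls, 2 were higher and 1 lower in fat body than in controls, and 2 were higher and 2 lower in fat body than in tubules. Their summed level was 204 to 281 CPM in fat body, 365 to 467 CPM in tubules and 135 to 146 CPM in controls. The transporter LOC659711 averaged 294 CPM in tubules, 35.4 CPM in fat body and 55.5 CPM in controls. Glial cells missing (LOC663985) averaged 2.05 CPM in tubules, 0.194 CPM in fat body and 0.297 CPM in controls. Whether the transporter values are RNA of glia was not tested. Of 40 genes on the testis list, 5 were higher and 11 lower in tubules than in controls, 6 were higher and 15 lower in fat body than in controls, and 10 were higher and 7 lower in fat body than in tubules. Their summed level was 1337 to 2751 CPM in fat body, 1317 to 2287 CPM in tubules and 2572 to 5759 CPM in controls, the highest value being that of control replicate 3. The text match for this list also took in spermine oxidases and a spermidine synthase, which are polyamine enzymes. Among these the spermine/spermidine oxidase LOC662554 averaged 385 CPM in fat body, 36.2 CPM in tubules and 163 CPM in controls. The counts and sums of the testis list therefore do not stand for testis RNA alone. Over all genes tested, 62.8% passed in tubules over control, 69.1% in fat body over control and 79.8% in fat body over tubules.

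**Figure D4:**
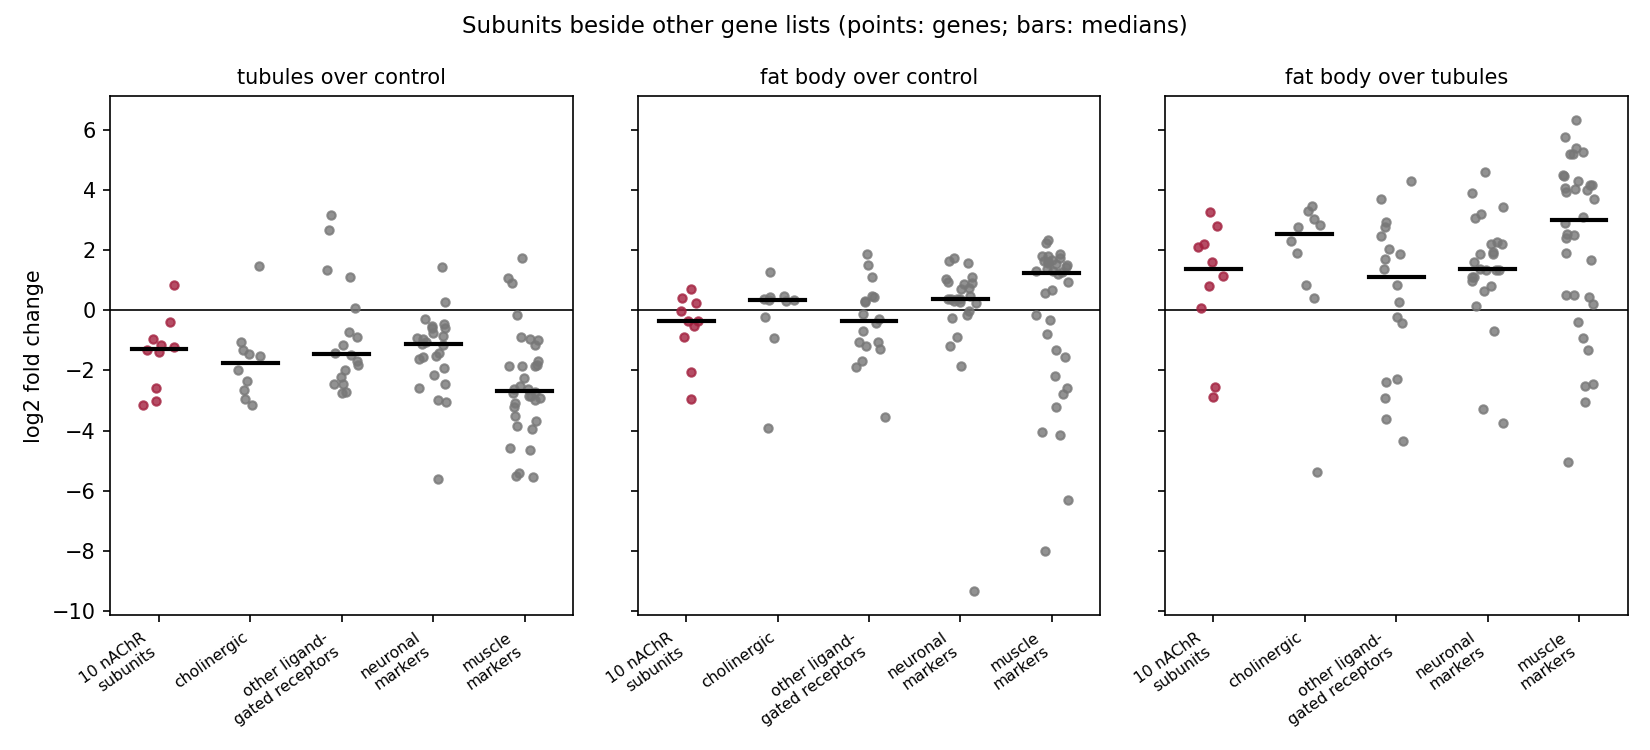
Log2 fold change of each gene (points) in the 10 subunits and 4 other gene lists, in the 3 comparisons (panels), with the median of each list as a bar. In fat body over tubules the medians are 1.38 for the subunits, 2.55 for the cholinergic genes, 1.10 for the other receptors, 1.39 for the neuronal markers and 3.01 for the muscle markers.

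The subunits were also compared by the shape of their profile over the 9 libraries, as the root mean square (RMS) difference of log2(CPM + 0.5) after centring each gene on its mean. The most alike were nAChRa1 and nAChRa2, at 0.21. Next came nAChRa4 and nAChRa6 at 0.29 and nAChRa6 and nAChRa10 at 0.33, and nAChRb1 was nearest to nAChRa4, at 0.36. The subunit nAChRa8 was nearest to nAChRa11, at 0.36, nAChRa7 to nAChRa2, at 0.40, and nAChRa3 to nAChRb1, at 0.41. The subunits nAChRa5 and nAChRa9 were far from all others, with nearest distances of 0.79 for nAChRa5 (to nAChRa9) and 0.78 for nAChRa9 (to nAChRa11). The median distance to the other 11 was 1.53 for nAChRa9 and 1.49 for nAChRa5, and between 0.68 and 0.96 for the rest.

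**Figure D5:**
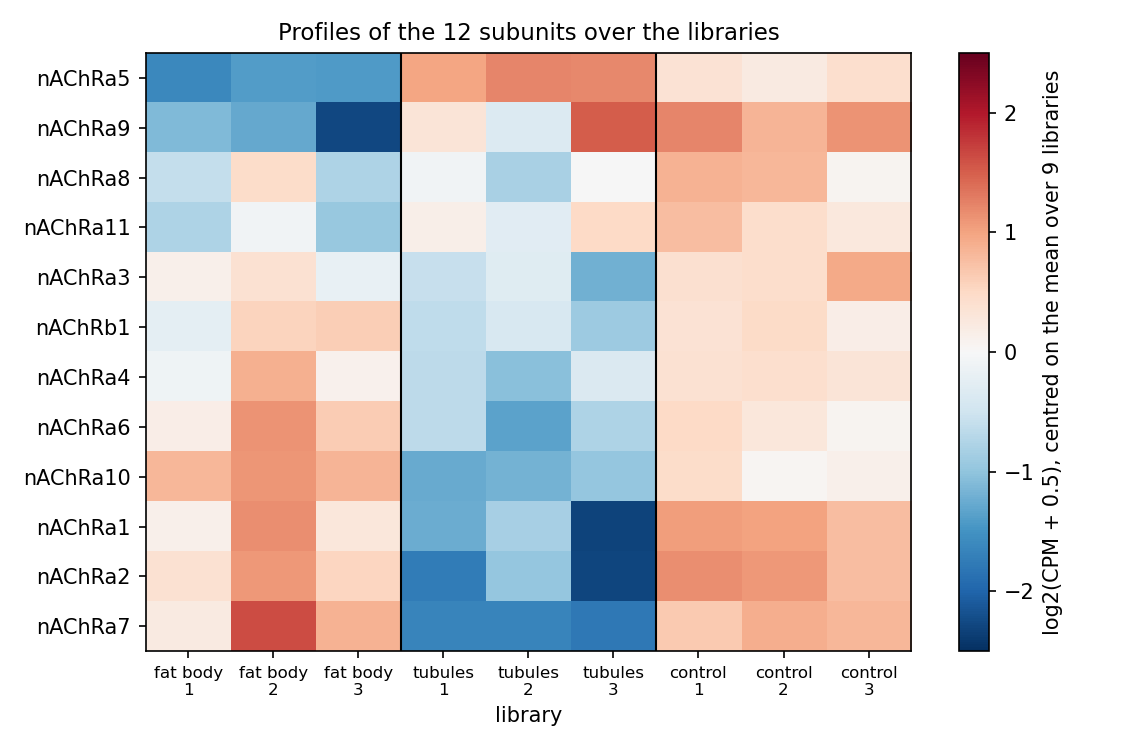
Profiles of the 12 subunits (rows) over the 9 libraries (columns), as log2(CPM + 0.5) centred on each gene's mean over the libraries, in colour from blue (below the mean) to red (above it). The rows of nAChRa5 and nAChRa9 are blue in fat body, while those of nAChRa1, nAChRa2, nAChRa7 and nAChRa10 are blue in tubules.

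Among all genes with a description, the 4 nearest to nAChRa4 were sodium- and chloride-dependent GABA transporter 1 (LOC662989), disintegrin and metalloproteinase domain-containing protein 11 (LOC663217), UDP-glucuronosyltransferase 2B9 (LOC657451) and chymotrypsin inhibitor-like (LOC103312291), at distances from 0.10 to 0.19. The 4 nearest to nAChRa6 were protein SCAI (LOC661833), kinesin-like protein unc-104 (LOC662651), small G protein signaling modulator 1 (LOC657420) and homeobox protein onecut (LOC103314820), at distances from 0.18 to 0.20. For nAChRa7 they were acetylcholinesterase 1 (LOC662258), adenylate cyclase type 3 (LOC657568), BTB/POZ domain-containing protein KCTD12 (LOC662864) and rho GTPase-activating protein 100F (LOC660562), at distances from 0.18 to 0.22. The first of these is the enzyme that ends the action of acetylcholine. Beside nAChRa1 stood group 3 secretory phospholipase A2 (LOC655133), nAChRa2, receptor-type tyrosine-protein phosphatase N2 (LOC663427) and sodium-coupled monocarboxylate transporter 1 (LOC100142226), at distances from 0.20 to 0.26. Beside nAChRa2 stood sodium-coupled monocarboxylate transporter 1 (LOC100142226), group 3 secretory phospholipase A2 (LOC655133), nAChRa1 and receptor-type tyrosine-protein phosphatase N2 (LOC663427), at distances from 0.21 to 0.22. These 2 subunits thus shared most of their nearest genes. The genes closest to nAChRa3 were Kv channel-interacting protein 1 (LOC661960), carbonic anhydrase-related protein 10 (LOC663015), sodium-dependent neutral amino acid transporter B(0)AT3 (LOC657475) and xenotropic and polytropic retrovirus receptor 1 (LOC658194), at distances from 0.14 to 0.21. Those closest to nAChRa8 were neuroligin-1 (LOC663865), otopetrin-2 (LOC663528), adhesion G protein-coupled receptor E2 (LOC103312457) and metabotropic glutamate receptor 8 (LOC103313045), at distances from 0.23 to 0.32. Neuroligin is an adhesion protein of synapses. The profile of nAChRa10 was nearest to serine protease snake (LOC662662), glutathione S-transferase 1 (LOC660161), serpin B6 (LOC658387) and rhythmically expressed gene 5 protein (LOC660273), at distances from 0.10 to 0.14. That of nAChRa5 was nearest to translocon-associated protein subunit delta (LOC663710), protein-lysine N-methyltransferase mettl10 (LOC663774), protein MAK16 homolog (LOC661033) and poly [ADP-ribose] polymerase 12 (LOC103313828), at distances from 0.17 to 0.20. That of nAChRa9 was nearest to venom carboxylesterase-6 (LOC661445), histamine-gated chloride channel (Hiscl1), putative ankyrin repeat protein RF_0381 (LOC103313649) and protein phosphatase PHLPP-like protein (LOC662191), at distances from 0.37 to 0.47. No gene came as close to nAChRa9 as to the other 9 subunits. All these distances are descriptions over the same 9 libraries, whose scaling and grouping the genes share.

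All 12 subunits matched a gene of the RefSeq annotation of assembly icTriCast1.1 through their protein accessions, which gave their chromosome and order but is not the build of the deposited table, so no coordinates are given. The pair nAChRa8 and nAChRa11 lies on chromosome 4 with 0 genes between them, and their profiles were also each other's nearest among the subunits. The pair nAChRa7 and nAChRb1 lies on chromosome 10, again with 0 genes between, and nAChRa6 lies on the same chromosome with 155 genes between it and nAChRb1. The members of this pair differed more in tubules over control, at -3.03 ± 0.40 for nAChRa7 and -1.11 ± 0.31 for nAChRb1. The genes nAChRa5 and nAChRa10, which ran in opposite directions, share chromosome 9 with 223 genes between them. The genes nAChRa1 and nAChRa4 lie on chromosome 4, nAChRa2 on chromosome 2, nAChRa9 on chromosome 3 and nAChRa3 on chromosome 7. How reads shared by neighbouring or similar genes were counted is not given in the sources used here.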

How the data were processed

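RNA was measured in 9 libraries of 3 groups, as the labels give them. The RNA was isolated with TRIzol and cleared of DNA with DNase I, per the labels' protocols, which also name Tcas5.2 as the assembly that reads were mapped to. Trimmomatic 0.32 appears in the submitters' processing notes, while the mapping and counting tools are not given in these sources. Per the file headers, the authors deposited an expected count per gene and library, a DESeq-normalized signal, FPKM, TPM, the authors' log2 fold changes, and gene and protein lengths. All listed genes reach a log2 fold change of 1 in size in some comparison of the authors' table, so all counts of passing genes rest on genes selected on these samples. Genes outside it are not analysed here.

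The rounded expected counts went into edgeR 4.0.16 under R 4.3.3 (quasi-likelihood F test, TMM factors on the listed genes, filterByExpr, no covariate, all 9 libraries in 1 fit), with the library totals recovered from count, FPKM and length. Benjamini-Hochberg adjusted p-values were taken over 5358 genes, a gene passed under 0.05, and 109 genes fell to the filter; all 12 subunits passed it. The SE of a log2 fold change is its size divided by the square root of F, and it is approximate. Coding length is 3 times the deposited protein length, because the deposited gene length spans introns: over 3621 genes matched by symbol, its median ratio to the RefSeq gene span was 0.997. The match was not general, since 62.9% of these genes lay within 5% of that span.

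The members and the 8 gene lists were chosen with earlier results of these data known, and 9 text matches were removed from the lists and 1 gene was added by hand. Named genes were all subunits, all cholinergic genes, the 6 other receptors and the 5 neuronal and 5 muscle markers of highest mean CPM, and the 4 genes nearest in profile to each of the 10. Some further genes of the neuronal, glial and testis lists are named to show what those lists hold. Other scalings, DESeq2 1.42.0, no filter, 2-group fits, a replicate block, leave-one-out fits, and log2 of TPM or FPKM with a pseudocount were tried.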

Additional observations from a re-analysis of the deposited data

Results flagged for a closer look

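The subunits nAChRa10 and nAChRa5 are given again because their differences from control whole bodies ran in opposite directions in the 2 organs. For nAChRa10 all fat body libraries were above and all tubule libraries below the controls, with a log2 fold change of 2.10 in fat body over tubules. For nAChRa5 all fat body libraries were below and all tubule libraries above the controls, with -2.90 in fat body over tubules. Each gene's rise over controls depended on the scaling. It was 0.46 for nAChRa10 in fat body with library totals alone and 0.34 for nAChRa5 in tubules with the authors' size factors. Neither passed edgeR's test there. The gap between a gene's 2 differences from controls is the fat body over tubules comparison itself, in which both genes passed edgeR's test. That is no independent evidence, since the genes were selected on these comparisons.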

How the results depend on the processing

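Of 756 values of single subunits under other settings, 686 moved by less than 1 SD, 70 moved by more, and 0 values that passed the test changed sign; 20 of the 70 came with the authors' size factors and 14 with TPM + 1. The median of the 10 subunits was -1.77 for tubules over control and 2.05 in fat body over tubules with the authors' size factors, and 0.85 in fat body over tubules with TPM + 1, against -1.28 and 1.38. Against TMM, the authors' factors shift the median of all genes by 0.16 for fat body over control, -0.49 for tubules over control and 0.65 in fat body over tubules, and other scalings by at most 0.26 in size. Subunits passing numbered 3 to 4 for fat body over control, 8 to 9 for tubules over control and 8 to 9 in fat body over tubules with 1 library left out, and 3, 9 and 9 without the 2 libraries that stood apart, an alternative chosen after seeing the data. Cholinergic genes passing for fat body over control numbered 1, but 2 with DESeq2, RLE factors, upper-quartile factors, the authors' size factors, library totals, the 2 groups alone, or without the 2 libraries that stood apart, and 1 to 3 with 1 library left out. The cause was not tested.

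Replicate numbers did not pair the libraries: correlations of same-numbered deviations ran from -0.46 to 0.38, and 2 of 9 libraries correlated best with their own number. With a replicate block 3, 8 and 8 subunits passed, the pairing costing nAChRa3 its pass in fat body over tubules. Depth limits the lowest values: nAChRa2 had 5 reads in tubule replicate 3 and nAChRa9 had 7 in fat body replicate 3.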
